A study of Homo sapiens with 2 samples.

Results

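The genes described here are the Wnt ligands, their receptors, the secreted antagonists and the intracellular and target genes of the pathway. They were chosen by gene symbol, as the WNT, FZD, DKK1 to DKK4, SFRP and TCF7 families together with 18 named genes such as LEF1, AXIN2, RNF43 and LGR5. The rule itself uses no expression value, but genes and lists were chosen with earlier results of these data known. The rule found 57 genes among the 22411 genes measured under a single symbol, and each of the 57 had 1 row on the array. One of them, TCF7L1-IT1, is a non-coding transcript that the symbol rule takes in with TCF7L1. TCF7 and FZD8, which also meet the rule, were not analysed here as single genes.

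RNA came from cultured NCI-N87 cells, an established human gastric carcinoma line, and was hybridised to 1-colour Affymetrix Human Transcriptome arrays. One array carried RNA of the untreated parental line. The other carried RNA of an NCI-N87 line described as resistant to T-DM1 (written TDM-1 in the labels), an antibody-drug conjugate that carries a microtubule poison to cells with HER2 on their surface. Both were grown as tumour cells at 37 degrees with 5% CO2. The labels do not say how resistance was selected, whether the line is 1 clone, or whether the drug was present at harvest. Each group is 1 array, so nothing below could be tested or set against the spread between cultures.

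Wnt proteins are secreted lipid-modified ligands. In the canonical branch they bind a Frizzled receptor together with LRP5 or LRP6, which halts the destruction complex of APC, AXIN and GSK3, so that beta-catenin accumulates and activates genes with TCF/LEF factors. Several of the activated genes, among them AXIN2, NKD1, NOTUM, RNF43, ZNRF3 and DKK1, encode inhibitors of the pathway and form its negative feedback. In the stomach and intestine the pathway maintains epithelial stem cells.

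The deposited values are on a log2 scale, and differences are resistant minus parental. A gene was called higher or lower when the difference was at least 1 and the higher of its 2 values reached 5.79, a floor set at the median of that quantity across the array. The cells carried the epithelial markers fixed for the check. All 8 of them, among them EPCAM and KRT8, lay at or above the floor on both arrays. CDH1 (-1.10) and GRHL2 (-1.09) were called lower. All 7 fibroblast markers lay under the floor, with 3.94 to 4.88 on the parental and 3.79 to 4.79 on the resistant array. All 5 endothelial markers and 4 of 5 immune markers also lay under it. The exception was CD68, a gene of lysosomal membranes as well as a macrophage marker, at 10.56 and 10.30.

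DKK1, NKD1, ZNRF3 and NOTUM, genes of feedback inhibitors, and LGR4, an R-spondin receptor gene, were higher on the resistant array. RNF43, also a feedback inhibitor gene, was lower, as were the ligand gene WNT11 and the receptor gene FZD7. The remaining 49 of the 57 were not called. The same rule called 4.79% of all measured genes higher and 4.56% lower, and 9.35% in either direction. The 5 higher and 3 lower Wnt genes are to be read against these shares. The median difference of the 57 was 0.07, beside 0.03 over all genes. Only 25 of the 57 reached the floor on either array, and the other 32 could not be called. Among genes that reached it, 8 of the 25 Wnt genes (32.0%) were called, beside 18.7% of all 11206 (9.58% higher and 9.12% lower). The median size of the difference in these genes, with the sign left out, was 0.57 for the Wnt genes and 0.41 for all. With the sign kept it was 0.03 and 0.01. These shares and medians describe 2 arrays and set nothing apart.

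**Figure D1:**
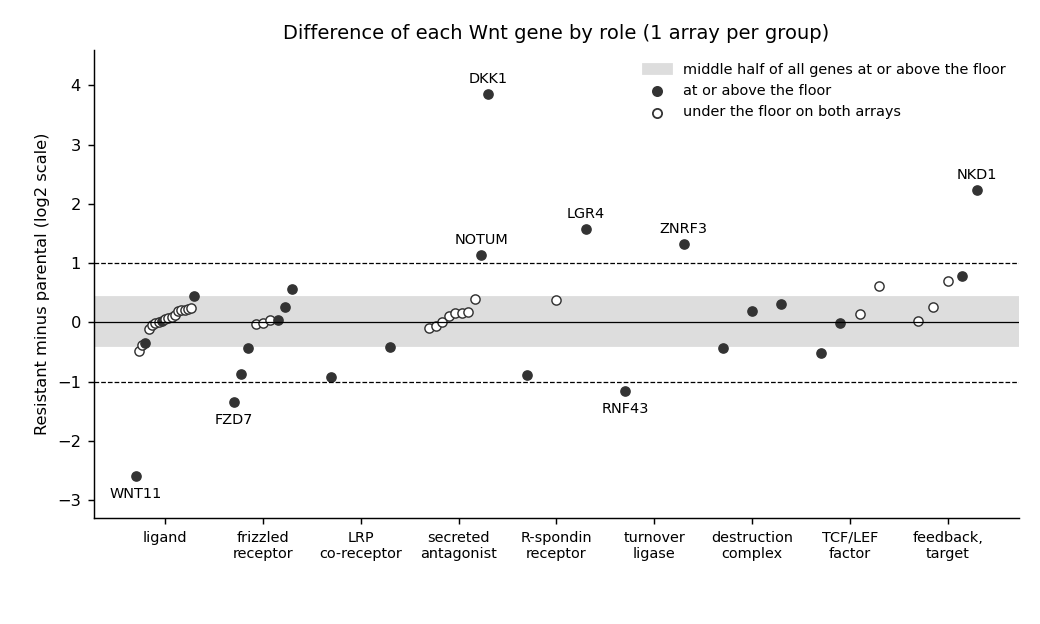
Difference between the resistant and the parental array (vertical axis, log2 scale) for each of the 57 Wnt genes, grouped by role on the horizontal axis and ordered by value within a role. Filled points reached the floor of 5.79, open points did not, dashed lines mark differences of 1 and -1, and the grey band runs from -0.40 to 0.43, the quartiles of all genes at or above the floor. DKK1 (3.86) stands highest and WNT11 (-2.59) lowest.

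Promoter sequence is shown for called genes because several of them are known targets of TCF/LEF factors. Of the 57 genes, 37 have a promoter window in RefSeq's table of the GRCh38.p14 build, and 3 of these were called. The windows of NKD1, WNT11, FZD7, ZNRF3 and NOTUM were not used here. The 250 bases before the start are shown for the 3 called genes, 5′ to 3′ on the strand of the gene, with matches to the TCF/LEF core letters CTTTGA or CTTTGT in capitals, searched on both strands. DKK1 lies at chr10:52314031-52314280 on the plus strand, LGR4 at chr11:27472791-27473040 on the minus strand, and RNF43 at chr17:58417535-58417784 on the minus strand.
DKK1: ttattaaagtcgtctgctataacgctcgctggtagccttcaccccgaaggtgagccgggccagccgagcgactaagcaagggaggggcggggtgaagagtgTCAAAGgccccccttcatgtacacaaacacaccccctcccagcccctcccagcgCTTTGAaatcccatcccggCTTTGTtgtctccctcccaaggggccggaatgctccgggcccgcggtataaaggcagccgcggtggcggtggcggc
LGR4: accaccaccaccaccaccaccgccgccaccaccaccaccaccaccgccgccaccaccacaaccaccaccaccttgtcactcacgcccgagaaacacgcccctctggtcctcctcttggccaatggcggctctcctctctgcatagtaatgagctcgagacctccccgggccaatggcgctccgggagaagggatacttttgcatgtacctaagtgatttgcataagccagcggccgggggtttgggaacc
RNF43: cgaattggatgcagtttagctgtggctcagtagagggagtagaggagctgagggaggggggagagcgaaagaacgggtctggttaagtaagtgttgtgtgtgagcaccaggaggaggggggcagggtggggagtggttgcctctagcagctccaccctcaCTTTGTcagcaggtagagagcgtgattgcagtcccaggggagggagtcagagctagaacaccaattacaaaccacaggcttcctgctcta

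The DKK1 window held 3 matches, which began 149, 95 and 76 bases before the start. The first of these reads TCAAAG, the reverse complement of CTTTGA. RNF43 held 1 match, 90 bases before the start, and LGR4 held none. Either core occurred in 22.9% of 27305 promoters and in 5 of the 37 Wnt gene promoters, those of DKK1, RNF43, SP5, FZD1 and WNT8B. SP5, whose product is a transcriptional repressor induced by Wnt signalling, had 4. Both cores share letters with sites of SOX factors, and a match is a run of letters and no evidence of binding. DKK1 was higher and RNF43 lower on the resistant array, so the called genes with a match differed in direction.

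Among the 19 ligand genes, WNT11 was the only one called, and it was lower. WNT11, a ligand known mainly for signalling that does not pass through beta-catenin, was 10.33 in parental and 7.74 in resistant cells. Its difference of -2.59 had rank 141 from the bottom among the 11206 genes that reached the floor. Both of its values lay above the floor.

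Only 3 other ligands reached the floor. WNT10A, a ligand of the canonical branch in skin and teeth, was 6.40 in parental and 6.84 in resistant cells. WNT3, which supports intestinal stem cells, was 6.20 and 5.85. WNT9A, a ligand known from joint development, was 5.98 and 6.01, so these 3 genes moved by less than 0.5 in either direction. The remaining 15 ligands, among them WNT3A, WNT5A and WNT7B, lay between 3.57 and 5.67 on both arrays, with differences from -0.47 to 0.25. WNT2B had the lowest and WNT4 the highest of these differences.

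The Frizzled genes encode the membrane receptors that bind Wnt proteins, and 6 of the 9 measured reached the floor. FZD7, a receptor linked to stem cell maintenance in the gut, was 8.77 in parental and 7.42 in resistant cells, a difference of -1.35. FZD6, which is best known for planar polarity, was 12.44 and 11.57. FZD3, a receptor with known roles in axon guidance, was 7.07 and 6.64. All 3 were lower on the resistant array, but only FZD7 passed the size rule.

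FZD5, the receptor of intestinal Paneth cells, went the other way, from 8.13 to 8.70. FZD4, which also binds the non-Wnt ligand norrin, was 5.60 and 5.87, and FZD2 was 7.38 and 7.43. FZD2 and FZD1 are the closest relatives of FZD7, and of these only FZD2 reached the floor, with a difference of 0.05. FZD1, FZD9 and FZD10 lay under the floor at 3.32 to 5.37. Over the 6 receptors that reached the floor the median difference was -0.19, with 3 positive and 3 negative, and over all 9 it was -0.01.

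Both co-receptor genes were lower without being called. LRP6, the co-receptor whose phosphorylated tail recruits AXIN, was 11.36 in parental and 10.44 in resistant cells. LRP5, its paralogue, was 10.07 and 9.66. The LRP6 difference of -0.92 fell just short of the size rule and the LRP5 difference was -0.41.

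**Figure D2:**
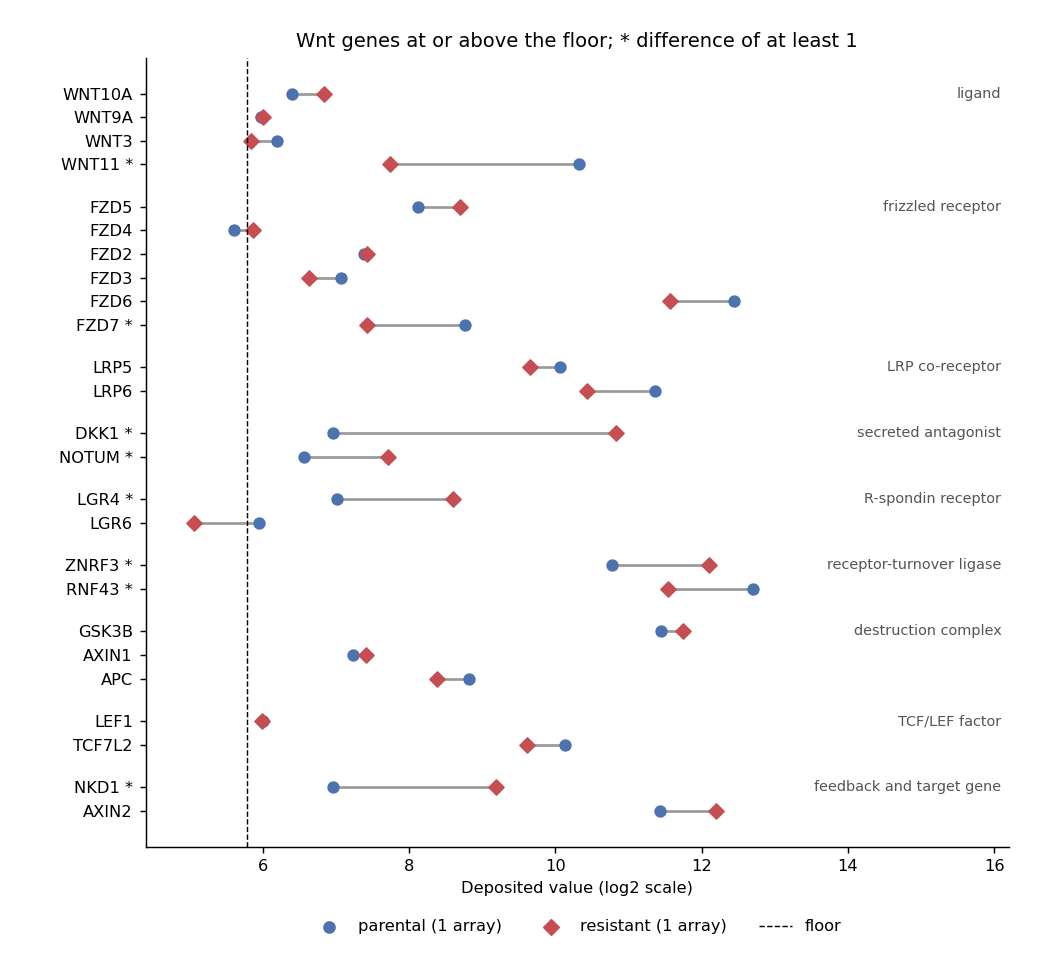
Deposited value on each array (horizontal axis, log2 scale) for the 25 Wnt genes at or above the floor, grouped by role. Circles are the parental and diamonds the resistant array, the dashed line is the floor at 5.79, and an asterisk marks a difference of at least 1. The longest line belongs to DKK1, from 6.96 to 10.83, and that of WNT11 runs the other way, from 10.33 to 7.74.

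Of the 10 secreted antagonist genes, only DKK1 and NOTUM reached the floor, and both were called higher. The other 8 could not be called in either direction. Among all genes that reached the floor 9.58% were called higher and 9.12% lower. DKK1, which encodes the Dickkopf protein that binds LRP5 and LRP6 and keeps them from Wnt, was 6.96 in parental and 10.83 in resistant cells. Its difference of 3.86 had rank 34 from the top among the 11206. NOTUM, a secreted carboxylesterase that strips the lipid from Wnt proteins, was 6.57 and 7.71, a difference of 1.14.

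The other Dickkopf genes did not reach the floor and could not be called. DKK2 was 4.13 and 4.07, DKK4 was 4.17 and 4.28, and DKK3, a divergent member of the family, was 5.78 and 5.79. DKK3 sat closest to the floor. The genes of the SFRP family and WIF1, whose products bind Wnt directly, lay between 4.10 and 4.69, with differences from -0.09 (WIF1) to 0.40 (SFRP2).

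Genes of the R-spondin axis, which sets how many Frizzled receptors stay at the cell surface, differed in both directions. R-spondins bind LGR receptors and draw off the ubiquitin ligases RNF43 and ZNRF3, which otherwise send Frizzled to the lysosome. LGR4 was 7.02 in parental and 8.60 in resistant cells, a difference of 1.58. LGR6 was 5.95 and 5.07, above the floor on the parental array only. LGR5, the receptor that marks stem cells of the intestine and the gastric gland base, lay under the floor at 4.116 and 4.502. LGR4 was thus the only one of these 3 receptors with both values over the floor.

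The paralogous ligase genes moved in opposite directions. ZNRF3 was 10.78 in parental and 12.10 in resistant cells, a difference of 1.32. RNF43 was 12.71 and 11.55, a difference of -1.16. Both genes lay far above the floor on each array, and both passed the size rule.

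Genes of the destruction complex and the TCF/LEF factors were not called. GSK3B, the kinase that marks beta-catenin for breakdown, was 11.45 in parental and 11.75 in resistant cells. AXIN1, the scaffold of the complex, was 7.23 and 7.41, and APC, the tumour suppressor that presents beta-catenin to it, was 8.82 and 8.38. These 3 differences stayed between -0.44 and 0.30. TCF7L2, the main TCF factor of intestinal epithelium, was 10.13 and 9.62. LEF1, both a partner of beta-catenin and a target gene, was 6.005 and 5.996. TCF7L1, often a repressor, lay under the floor at 4.88 and 5.50.

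Among the feedback and target genes NKD1 was called higher and AXIN2 pointed the same way. NKD1, an inhibitor that binds Dishevelled, was 6.96 in parental and 9.19 in resistant cells, and its difference of 2.23 had rank 169 from the top. AXIN2, the target most used as a readout of canonical signalling, was 11.43 and 12.20, a difference of 0.78 that did not pass the size rule. NKD2, SP5 and ASCL2, a transcription factor of intestinal stem cells, lay under the floor between 4.21 and 5.58. NKD1 was thus the only call among these 5 genes.

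The 8 called genes lie on 6 chromosomes, and their neighbours had median differences closer to 0. Neighbours were the 20 nearest protein-coding genes that reached the floor, 10 on each side, in the order of the RefSeq gene table. Around DKK1 the neighbours had a median of 0.17, around NKD1 -0.09, around ZNRF3 -0.06 and around WNT11 0.05. The NKD1 neighbours scattered widely, from -2.75 (LPCAT2) to 5.11 (TOX3), and NKD1 lay within their range. For FZD7 and RNF43 the medians were 0.25 and 0.21, opposite in sign to the genes themselves. Of the FZD7 neighbours, 2 were also called lower, NRP2 (-1.27) and BMPR2 (-1.07), and 2 were called higher. LGR4 and NOTUM had neighbours that leaned the same way, with medians of 0.58 and 0.26. Less these medians, LGR4 was 0.9995 and NOTUM 0.87, both under the size rule, and the other 6 stayed past it. The part of the neighbourhood in the LGR4 and NOTUM values was not tested.

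**Figure D3:**
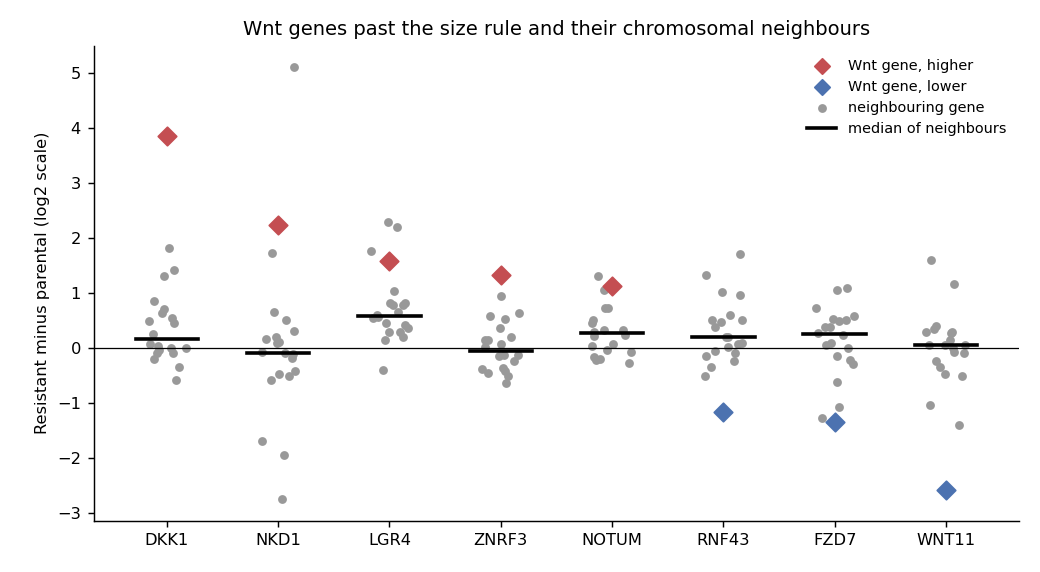
Difference between the resistant and the parental array (vertical axis, log2 scale) of the 8 called Wnt genes (diamonds), each over its 20 neighbouring genes (grey points) and their median (black bar). DKK1, ZNRF3, RNF43, FZD7 and WNT11 lie outside the range of their neighbours, FZD7 (-1.35) only just past NRP2 (-1.27). The LGR4 neighbours centre on 0.58 and some exceed LGR4. NKD1 and NOTUM also lie within the range of their neighbours.

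Chromosome 7 as a whole was shifted upwards (median 0.62) and carries 5 Wnt genes, FZD1, FZD9, WNT2, WNT16 and SFRP4. All 5 lay under the floor, and their differences ran from -0.03 to 0.16. None of the 57 lies on chromosome 13, which was shifted downwards (median -1.09). No Wnt gene could therefore be called on either of these chromosomes. With no floor the calls stayed at 5 higher and 3 lower, so the chromosome 7 genes did not pass the size rule either. Differences at this low signal are not usable, so the absence of calls there carries no information.

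Other genes of the pathway were read from 6 lists, of which 82 genes were measured. The lists were drawn up knowing that MMP7, BAMBI and JUN differ in these data, so their direction is not independent evidence. Calls fell on 14 of the 82, 9 of them higher and 5 lower, and the median difference was 0.06. Of the 63 that reached the floor these 14 are a share near the 18.7% of all such genes. CTNNB1, which encodes beta-catenin, was 8.56 in parental and 9.40 in resistant cells, a difference of 0.84 that did not pass the size rule.

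The 26 target genes held 7 higher calls and 1 lower call and had a median difference of 0.16, where 4.79% of all genes were higher and 4.56% lower. Of these 7, MMP7, BAMBI and JUN were listed with their differences known, so nothing is read from the count. MMP7, which encodes the protease matrilysin, went from 6.35 to 15.56. EDN1, which encodes endothelin-1, was 5.59 and 10.32, at least 23.1-fold higher against the floor. TNIK, a kinase that binds TCF factors, was 6.81 and 9.35, and CEMIP, a hyaluronan-binding protein gene, was 7.19 and 9.37. These 4 genes had differences from 2.18 (CEMIP) to 9.21 (MMP7).

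Other well-known targets were not called higher. MYC was 12.296 and 12.301. CCND1, the cyclin D1 gene, was 14.44 and 13.68, a difference of -0.76. CDX2, an intestinal transcription factor, was 6.63 and 4.78, at least 1.79-fold lower. It lies on chromosome 13, and it was not called less the chromosome median (-0.75) or less the median of its neighbours (-0.52). The 21 targets that reached the floor ran from -1.85 (CDX2) to 9.21 (MMP7), with 14 positive and 7 negative differences. Of these 21, 13 were not called. BAMBI (1.91), JUN (1.698) and BIRC5 (1.27), named after their values were seen, were the other targets called higher.

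**Figure D4:**
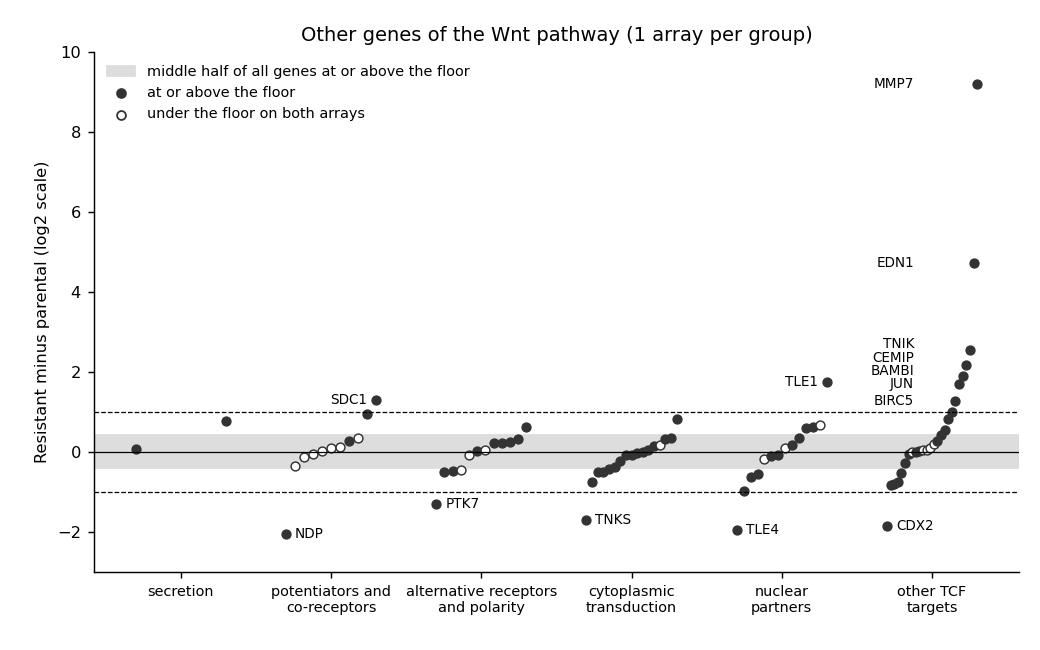
Difference between the resistant and the parental array (vertical axis, log2 scale) for 82 further genes of the pathway in 6 lists (horizontal axis), ordered by value within a list. Filled points reached the floor, open points did not, dashed lines mark 1 and -1, and the grey band runs from -0.40 to 0.43, the quartiles of all genes at or above the floor. MMP7 (9.21) and EDN1 (4.73) stand apart among the targets, and TLE4 (-1.94) and NDP (-2.05) are the lowest points.

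In the nucleus, members of the Groucho/TLE family, which hold TCF targets silent, differed in both directions. TLE1 was 7.08 in parental and 8.84 in resistant cells. TLE4, which like TLE1 lies on chromosome 9, was 7.52 and 5.57, at least 3.31-fold lower. TLE3 differed by -0.97 and TLE5, a short family member that acts against the others, by -0.62. Of 14 nuclear partners measured, TLE1 and TLE4 were the only ones called.

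At the membrane and in the cytoplasm SDC1, NDP, PTK7 and TNKS were called. The list of SDC1 and NDP had 4 genes at the floor, that of PTK7 9 and that of TNKS 16. Among all genes at the floor 18.7% were called, so nothing is read from these counts. SDC1, which encodes the heparan sulfate proteoglycan syndecan-1, was 8.59 in parental and 9.88 in resistant cells. NDP, the gene of the Frizzled-4 ligand norrin, was 6.50 and 4.44, at least 1.63-fold lower against the floor. It was not called with the floor of protein-coding genes only, at 6.53. KREMEN1, a co-receptor of Dickkopf proteins and the next gene after ZNRF3 among the neighbours, was 9.52 and 10.48, a difference of 0.95. KREMEN2, its relative, was 5.52 and 5.80, above the floor on the resistant array only. Of these genes that DKK1 acts through, KREMEN1 and KREMEN2 had a higher and LRP5 and LRP6 a lower value on the resistant array. None of them passed the size rule, and the KREMEN genes were named after their values were seen. Nothing is read from these directions.

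PTK7, a co-receptor of planar polarity signalling, was 8.05 and 6.76, a difference of -1.29. Its neighbours on chromosome 6 had a median of -0.64, and less this median PTK7 was at -0.65. TNKS, the tankyrase that tags AXIN for breakdown, was 9.55 and 7.85, a difference of -1.71. The neighbours of TNKS on chromosome 8 had a median of -0.59, and less this median it was still called lower. Its relative TNKS2 was 11.27 and 11.23, and no other gene among 17 of cytoplasmic transduction was called. The 4 RSPO genes, which encode the R-spondins that bind LGR4, lay under the floor on both arrays.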

How the data were processed

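The authors deposited 1 table of values on a log2 scale, made with Affymetrix Expression Console per the submitters' processing notes; algorithm, annotation and build are unstated, and the log base is taken from the values. Column medians were 4.76 on both arrays. Values reached 19.93, more than a 16-bit scanner can record in log2 units, so 1 unit may not equal a 2-fold change in brightness.

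Of 70523 rows, 23781 had 1 gene symbol. Symbols were updated through RefSeq's GRCh38.p14 gene table, which held all 57 Wnt genes. The row with the highest mean was kept per gene. A fold is given as "at least" against the floor where 1 value lay under it. Such a fold takes 1 unit as a 2-fold change, which may not hold here. The floor is a median over genes and no detection limit, so "at least" refers to the floor only. The single array per group sets the precision.

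Each Wnt gene that reached the floor is named; in each other list up to 4 called genes per direction are named, with CTNNB1, MYC and CCND1 regardless of value. BAMBI, JUN, BIRC5, TLE3, TLE5, KREMEN1, KREMEN2, TNKS2 and the genes of the closing observations were named outside this rule, after their values were seen. Alternatives covered array scaling, the mean of rows, floors, thresholds, chromosome medians, protein-coding genes and, added later, neighbour medians. The code of the size rule was tested on simulated data, which says nothing of the spread between cultures. Genes and lists were chosen with earlier results of these data known. Python 3.11.15, pandas 2.3.3 and statsmodels 0.14.6 were used.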

Additional observations from a re-analysis of the deposited data

How the results depend on the processing

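The 8 called Wnt genes kept their directions under median centring, quantile normalization and loess centring. They also kept them with the mean of a gene's rows, chromosome medians and neighbour medians. The 5 higher and 3 lower calls were kept under all of these except neighbour medians, and with protein-coding genes only. Each Wnt gene had 1 row, so the mean of rows could not change its value. Column medians were 4.76 on both arrays, so median centring hardly moved any value. Less the median of the neighbouring genes, an alternative added after the values were seen, 3 Wnt genes were higher, without LGR4 (0.9995) and NOTUM (0.87), and the median over the Wnt genes was -0.0496. It was -0.01 less chromosome medians, so its sign carries no weight. A threshold of 1.5-fold gave 6 Wnt genes higher and 6 lower, adding AXIN2 above and FZD6, LGR6 and LRP6 below, and 17 other pathway genes higher and 11 lower. A threshold of 4-fold left 2 Wnt genes higher (DKK1 and NKD1) and 1 lower (WNT11), and 4 and 1 of the other pathway genes. These follow from the thresholds. With no floor the counts of Wnt genes stayed at 5 higher and 3 lower. With the floor at 8.42, the 75th percentile, NOTUM was not called, and 1 other pathway gene, TNKS, was lower. Quantile normalization added KREMEN1 (1.01) and FOSL1 (1.04) to the other pathway genes called higher. CDX2 was not called less its chromosome median (-0.75) or neighbour median (-0.52), PTK7 not less its neighbour median (-0.65), and NDP not with the floor of protein-coding genes only (6.53). KREMEN1 (1.09) and PPARD (-1.60) were called less their neighbour medians. No paired analysis was possible because each group has 1 array. The 32 Wnt genes under the floor have no usable difference at this signal, and no value here has a replicate.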

Other observations

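A further 21 modulators of the pathway, listed after the values of the main genes were seen, held few genes above the floor. IGFBP4, which encodes a secreted protein that binds LRP6 and Frizzled as well as insulin-like growth factors, was 6.79 in parental and 5.61 in resistant cells, at least 2.01-fold lower against the floor. It was the only one of the 21 called. DAB2, an endocytic adaptor that can bind AXIN, was 6.62 and 5.94. TRABD2A, which encodes a membrane protease that cleaves Wnt proteins, was 5.75 and 6.24. The secreted antagonist genes FRZB and SOST and the Dishevelled-binding DACT1 and DACT2 were among the 14 of the 21 that did not reach the floor.

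The row annotated jointly to FZD8 and a microRNA gene cannot be given to either. It was 5.24 in parental and 5.52 in resistant cells, under the floor on both.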
